A study of Mus musculus with 8 samples.

Results

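Bone marrow-derived dendritic cells (BMDCs) from GEF-H1-/- mice and from WT mice were compared after both had been treated with ansamitocin-P3 at 100 nM for 5 h. Bone marrow of mice on a C57BL/6 background (C57BL/6N in the study's methods) was cultured with GM-CSF and IL-4 before treatment, and the GEF-H1-/- mice carry a germline knockout of Arhgef2 (allele tm1Hcr), so that every cell of those cultures had the deletion. There were 2 libraries of treated WT, 2 of treated GEF-H1-/-, 2 of untreated WT and 2 of untreated GEF-H1-/- cells, and the deposited table gives 1 pooled FPKM per gene and group. The duplicates therefore have no values of their own, no test between the groups is possible, and the 95% interval that Cuffdiff attached to each FPKM is the only error, given in parentheses after a value. The labels do not say whether duplicates were separate cultures or animals. The comparison covers the 11115 genes, of 23356 in the table, that had status OK and at least 1 FPKM in at least 1 treated group, with microRNA and snoRNA genes left out. Ttpa, at 0.999862 FPKM in treated GEF-H1-/- cells, lay just outside this limit, and Enpp4, at 1.001 FPKM in treated WT cells, just inside.

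GEF-H1, the product of Arhgef2, is a guanine nucleotide exchange factor that activates the small GTPase RhoA. It is held inactive on microtubules and is released when they come apart. Ansamitocin-P3 is a maytansinoid that binds tubulin and destabilises microtubules, and dendritic cells exposed to such drugs mature: they display costimulatory molecules and secrete inflammatory cytokines. Active RhoA acts on actin filaments, on kinase cascades that lead to JNK and AP-1, and on the serum response factor SRF, and GEF-H1 has been linked to NF-kappaB signalling downstream of innate sensors. The question the comparison addresses is which genes stand at a different level in drug-treated cells when GEF-H1 is absent.

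Arhgef2 itself, at chr3:88616207-88648052 (mm10), stood at 45.9 FPKM (36.9 to 54.9) in treated WT and 4.16 FPKM (3.22 to 5.11) in treated GEF-H1-/- cells. The log2 difference of FPKM + 1, here and below always GEF-H1-/- minus WT, was -3.18, and the level in treated GEF-H1-/- cells was 9.07% of that in treated WT cells. Untreated cells had 42.3 and 4.59 FPKM in WT and GEF-H1-/-, in that order, a difference of -2.95. The columns that name no genotype, taken as WT by elimination, were thus the ones with high Arhgef2.

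A gene was called different when its log2 difference was over 1 or under -1, a 2-fold change of FPKM + 1, which is not a test. After ansamitocin-P3, 201 genes were higher and 211 lower in GEF-H1-/- than in WT cells, which is 1.81% and 1.9% of the genes compared. The intervals of both groups lay apart for 195 of the higher genes (1.75%) and 201 of the lower ones (1.81%). At any size of difference, intervals lay apart for 786 genes in the higher direction (7.07%) and for 766 in the lower (6.89%). The median difference over all genes compared was -0.03. In bulk RNA, fewer cells of a type and less RNA per cell cannot be told apart. The counts of list members called below stand against these shares. Past 4-fold, 12 genes were higher and 23 lower. Rrp1b at 1.0014 and Gal at -1.0004 were the called genes nearest to the threshold, and Pwp2 at 0.9999 and Mir22hg at -0.9991 stayed just within it.

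The summed FPKM of all genes other than microRNA and snoRNA genes was 659258 in treated WT and 555752 in treated GEF-H1-/- cells. The 10 genes with the largest excess in WT cells, among them S100a8, Actg1, Cst3, Tmsb4x, Actb and Fth1, made up 33.9% of the gap between the sums over the genes compared. When FPKM was rescaled so that every group had the same sum (equal-sum scaling), the median difference of all genes moved to 0.19, with 380 genes higher and 111 lower: 77.4% of the called genes were then higher, against 48.8% on the FPKM as deposited. All 201 higher genes stayed called, 100 of the 211 lower genes came within 2-fold, and no called gene changed direction. The scaling adds up to 0.25 to a log2 difference, so that lower genes less than that past the threshold are called only on the deposited scale. For lists whose median changes sign with the scaling, both medians are given below.

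**Figure D1:**
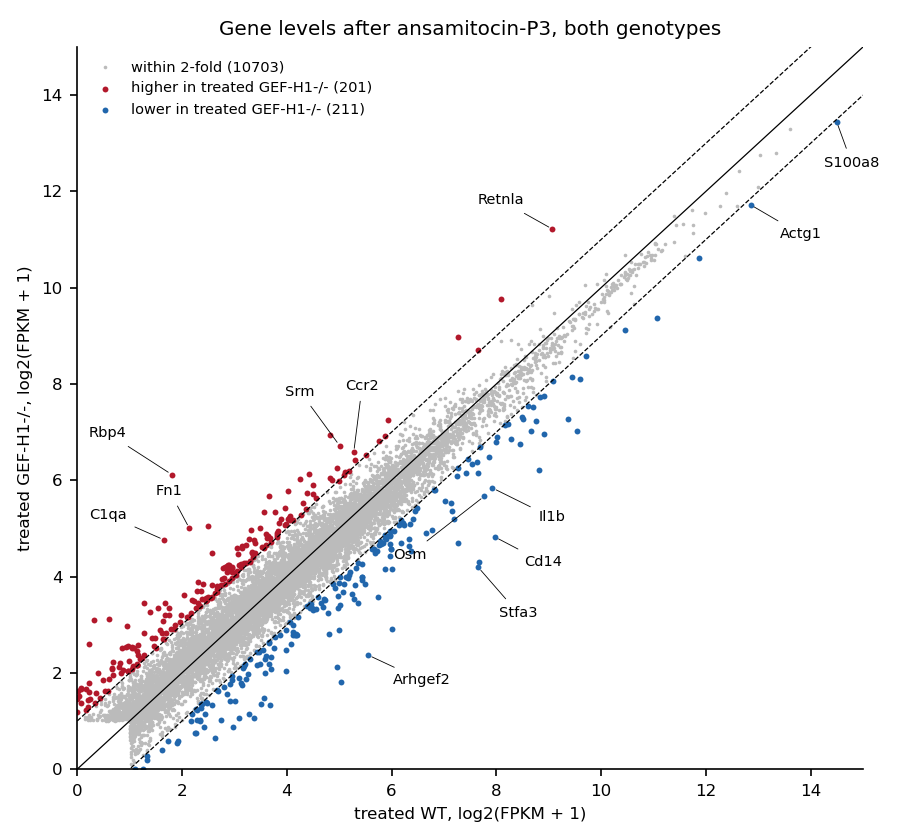
Level of each gene compared in treated WT cells (x axis) and treated GEF-H1-/- cells (y axis), both as log2(FPKM + 1), with a solid line at equal levels and dashed lines at 2-fold. In all, 201 genes lie above and 211 below the dashed lines, and Arhgef2, Cd14, Il1b and Osm are among the genes farthest below.

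The untreated cells show the differences that were there without the drug, and the untreated pair shares no library with the treated pair. Over the same genes, untreated GEF-H1-/- cells had 117 genes higher (1.05%) and 54 lower (0.486%) than untreated WT cells. Of the 201 genes higher in treated GEF-H1-/- cells, 75 (37.3%) were also past 2-fold without drug and 193 had the same sign, with a median untreated difference of 0.74 against 1.22 treated. Of the 211 lower genes, 36 (17.1%) were past 2-fold without drug and 178 had the same sign, with medians of -0.43 untreated and -1.24 treated. The untreated intervals overlapped for 82 of the higher and 136 of the lower genes. The difference between the treated and untreated contrasts was not tested.

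**Figure D2:**
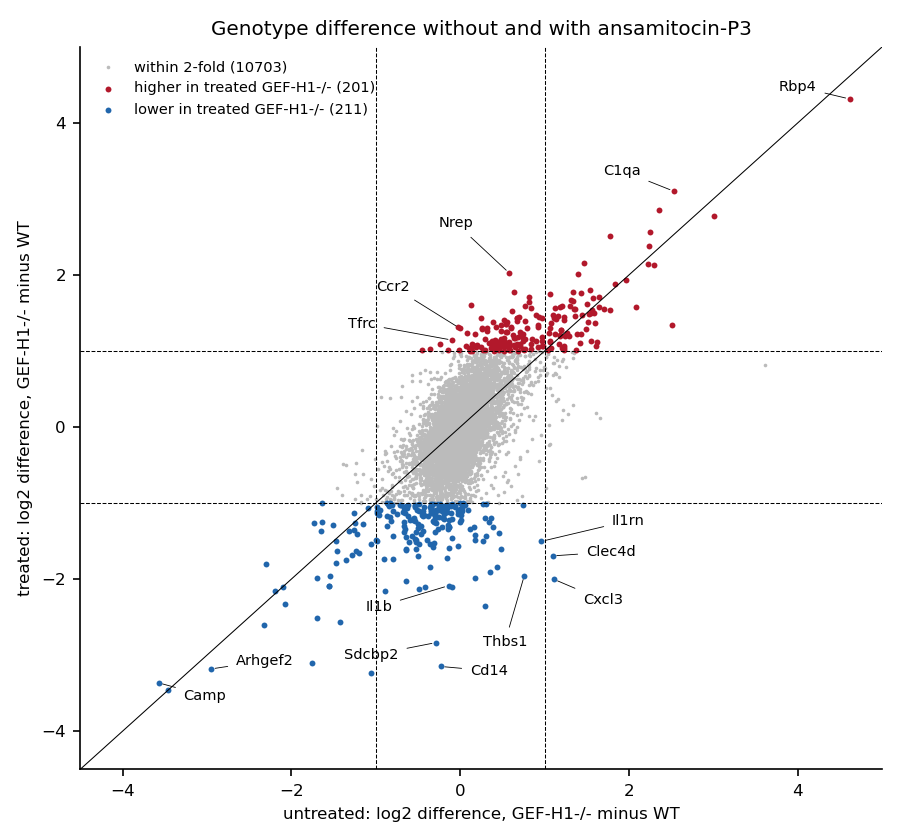
Log2 difference between GEF-H1-/- and WT cells without drug (x axis) and after ansamitocin-P3 (y axis) for each gene compared, with dashed lines at 2-fold and a solid line where both are equal. Camp, Arhgef2, C1qa and Rbp4 lie near the line of equality, while Cd14, Il1b and Sdcbp2 are low only on the y axis and Cxcl3 and Clec4d are past 2-fold in opposite directions.

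Several secreted cytokines were lower in treated GEF-H1-/- than in treated WT cells. Of 17 cytokine genes compared, 5 were lower and 1 higher past 2-fold, where 1.9% and 1.81% of all genes compared were, and the list's median was -0.49 (-0.25 with equal-sum scaling) against 0.17 in untreated cells. Il1b, which encodes the fever-inducing cytokine IL-1beta, at chr2:129364580-129375733, was at 242 FPKM (198 to 286) in treated WT and 56.2 FPKM (45.7 to 66.7) in treated GEF-H1-/- cells, a difference of -2.09. Without drug it was at 25.2 and 22.8 FPKM in WT and GEF-H1-/- cells, and those intervals overlapped. Osm, for oncostatin M of the IL-6 family, was at 217 FPKM (172 to 263) in treated WT and 49.9 FPKM (39.6 to 60.004) in treated GEF-H1-/- cells (-2.10), from 16.9 and 15.7 FPKM untreated. Both genes were thus near-equal between the genotypes without drug and 4.31-fold (Il1b) and 4.36-fold (Osm) apart with it.

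Il1a, for IL-1alpha, differed by -1.43 (42.1 against 14.98 FPKM in treated WT and GEF-H1-/- cells). Il1rn encodes the natural antagonist of the IL-1 receptor, and it was also lower, at 274 against 778 FPKM (-1.50), although untreated GEF-H1-/- cells had the higher level (197 against 101 FPKM). Csf1, for the macrophage growth factor M-CSF, showed the same turn (-1.02 treated, 0.74 untreated). Il6 did not pass 2-fold: it was at 77.7 FPKM (55.4 to 89.5) in treated WT and 40.97 FPKM (28.4 to 49.4) in treated GEF-H1-/- cells (-0.91), with the intervals apart. Tnf (0.27) and Il12b (0.44) were slightly higher in GEF-H1-/- cells, each with overlapping intervals. The 1 cytokine gene called higher was Il4 (1.8 against 5.59 FPKM, 1.23), which was as far apart without drug (1.26).

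Chemokine ligands, which recruit leukocytes, went both ways: 3 of 23 were lower and 5 higher past 2-fold, and the median was 0.05 with drug and 0.93 without. The lower ones were the neutrophil attractants Cxcl3 and Cxcl2, which lie together at chr5:90786103-90905938 (mm10), and Ccl4 (387 against 185 FPKM, -1.06). Cxcl3 was at 145 FPKM (97.6 to 157) in treated WT and 35.4 FPKM (23.4 to 41.2) in treated GEF-H1-/- cells (-2.0025), and without drug the order was opposite, at 3.97 and 9.73 FPKM in WT and GEF-H1-/- cells (1.11). Cxcl2 was at 63.4 FPKM (42.5 to 68.97) in treated WT and 16.95 FPKM (11.1 to 20.4) in treated GEF-H1-/- cells (-1.84), and untreated at 3.68 and 5.36 FPKM with overlapping intervals. The 5 higher ligands Ccl8, Ccl1, Pf4, Xcl1 and Ccl12 had untreated differences between 1.06 and 3.01, so that each was past 2-fold without drug too. Their levels were low except for Pf4, and Ccl12 had overlapping intervals.

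Of 10 chemokine receptors, 3 were higher and none lower. Ccr2, by which monocytes follow CCL2, was at 136 and 135 FPKM in untreated WT and GEF-H1-/- cells (-0.01) and at 37.8 FPKM (29.2 to 46.3) in treated WT and 94.5 FPKM (70.8 to 113) in treated GEF-H1-/- cells (1.30), so that it was equal without drug and apart with it. Ccr3 and Cxcr1, at no more than 3.21 FPKM, were higher with and without drug. Ccr7, the receptor that guides mature dendritic cells to lymph nodes, was at 602 against 405 FPKM (-0.57) with overlapping intervals.

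The promoters of Cxcl2 and Cxcl3 are shown because these neighbouring ligands were the chemokine genes with the lowest differences. They are RefSeq sequences of GRCm38.p6, 250 bases before to 50 after the transcript start, 5′ to 3′, at chr5:90903649-90903948 (plus strand) and chr5:90785851-90786150 (plus strand). Capitals mark matches to the NF-kappaB consensus on either strand, where 2 overlapping matches form 1 block in each promoter, and in Cxcl3 the E-box CACGTG as well.
Cxcl2: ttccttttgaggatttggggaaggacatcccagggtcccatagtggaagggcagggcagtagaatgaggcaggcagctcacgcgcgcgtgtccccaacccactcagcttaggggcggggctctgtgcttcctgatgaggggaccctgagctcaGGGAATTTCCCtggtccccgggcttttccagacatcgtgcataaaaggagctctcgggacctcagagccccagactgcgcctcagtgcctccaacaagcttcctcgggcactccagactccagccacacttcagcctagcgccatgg
Cxcl3: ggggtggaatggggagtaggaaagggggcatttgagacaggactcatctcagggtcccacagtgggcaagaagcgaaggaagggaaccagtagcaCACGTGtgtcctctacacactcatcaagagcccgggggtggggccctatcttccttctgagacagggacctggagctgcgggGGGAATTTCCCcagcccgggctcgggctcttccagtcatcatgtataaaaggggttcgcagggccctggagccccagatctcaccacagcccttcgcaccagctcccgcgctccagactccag
The NF-kappaB match is present in 8.46% of all promoter windows of this length and in 10.5% of those of the genes compared. A match is a run of letters and says nothing of binding in these cells.

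Costimulatory and maturation genes, whose products let dendritic cells activate T cells, included 5 lower and 0 higher of 21, with a median of -0.34 (-0.13 with equal-sum scaling, under which 1 of the 5, Cd80, stayed past 2-fold). Cd80, a B7 ligand of CD28, was at 139 FPKM (107 to 171) in treated WT and 44.9 FPKM (33.9 to 54.8) in treated GEF-H1-/- cells (-1.61), and at 37.2 and 23.4 FPKM untreated. Its partner ligand Cd86 differed less, at 71.8 against 54.1 FPKM (-0.40), and Cd40 less again (-0.21), both with overlapping intervals. The TNF superfamily ligands Tnfsf4 (OX40L, 34.1 against 14.8 FPKM, -1.15), Tnfsf9 (4-1BBL, 4.59 against 1.6 FPKM, -1.10) and Tnfsf15 (TL1A, 3.9 against 1.35 FPKM, -1.06) were lower, Tnfsf9 and Tnfsf15 at low levels. Without drug they differed by -0.98, -0.21 and -0.66, with intervals apart for Tnfsf4 and Tnfsf15. Cd83, a surface marker of mature dendritic cells, was at 154 against 75.6 FPKM (-1.02).

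Among 32 pattern recognition genes, 4 were lower and 0 higher, with a median of -0.17 that turned to 0.05 with equal-sum scaling. Cd14, the co-receptor that hands lipopolysaccharide to TLR4, had one of the widest gaps of all genes: 250.1 FPKM (169.7 to 272) in treated WT and 27.3 FPKM (18.5 to 32.4) in treated GEF-H1-/- cells, a 9.16-fold difference (-3.15), from 14.7 and 12.4 FPKM without drug (-0.23). Toll-like receptors and their cofactors were otherwise within 2-fold. The other 3 were the myeloid C-type lectin genes Clec4d (79.5 against 23.9 FPKM, -1.70) and Clec4e (Mincle, 36.9 against 11.5 FPKM, -1.60), which adjoin on chromosome 6, and Trem1 (58.1 against 26.4 FPKM, -1.11), an amplifier of innate responses. In untreated cells Clec4d was 1.10, past 2-fold in the opposite direction, and Clec4e 0.48.

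**Figure D3:**
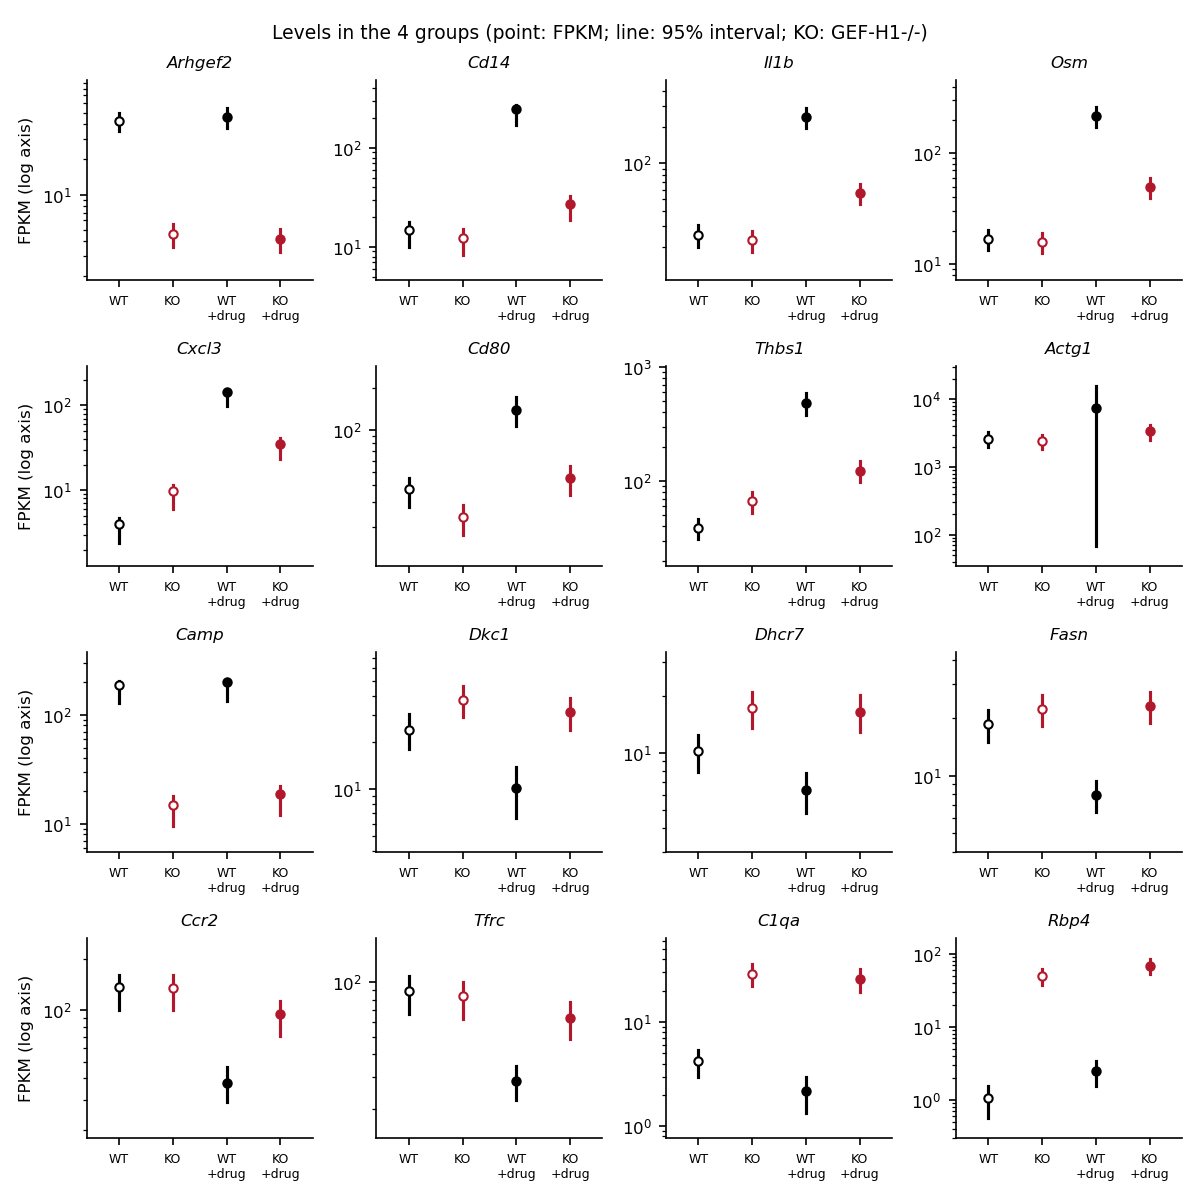
FPKM on a log axis of 16 genes in untreated WT, untreated GEF-H1-/- (KO), treated WT and treated GEF-H1-/- cells, where points are the pooled FPKM and lines the 95% interval. Cd14, Il1b, Osm, Cd80 and Thbs1 had their highest level in treated WT cells, Dkc1, Dhcr7, Fasn, Ccr2 and Tfrc their lowest, and Arhgef2, Camp, C1qa and Rbp4 differed between the genotypes with and without drug.

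Of 39 NF-kappaB pathway genes, 1 was past 2-fold: Plaur, the urokinase receptor, at 699 FPKM (489 to 789) in treated WT and 281 FPKM (201 to 322) in treated GEF-H1-/- cells (-1.31). Of the rest, 7 were lower with intervals apart, among them the subunit genes Rel (-0.91) and Nfkb1 (228 against 125 FPKM, -0.87), and the list's median was -0.38 against -0.07 untreated (-0.14 treated with equal-sum scaling). Of 30 AP-1, ATF and C/EBP genes, 4 were lower and 0 higher: Crem (58.04 against 16.8 FPKM, -1.73), Junb (253 against 109 FPKM, -1.20), Maff (17.7 against 7.97 FPKM, -1.06) and Fosl2 (112 against 54.6 FPKM, -1.02). The list's median was -0.21 (-0.01 with equal-sum scaling, under which 1 member, Crem, was lower and 1, Cebpa, higher past 2-fold). Cebpa was at 15.2 against 29.7 FPKM (0.93). Jun (-0.37), Atf3 (-0.14) and Cebpb (-0.70) had overlapping intervals, as did Fos (-0.45). For Cebpb both treated values lay above their own intervals: 305 FPKM (155 to 248) in WT and 187 FPKM (101 to 162) in GEF-H1-/- cells.

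In the MAP kinase and JNK list, 5 of 41 genes were lower and 0 higher, and the kinases themselves were not among them: the JNK and p38 cascade genes had a median of 0.00 and the ERK cascade genes of -0.24. The 5 were the orphan nuclear receptors Nr4a1 (10.3 against 1.55 FPKM, -2.15) and Nr4a2 (8.69 against 1.21 FPKM, -2.13), Csrnp1 (61.9 against 27.5 FPKM, -1.14) and the dual-specificity phosphatases Dusp5 (186 against 79.7 FPKM, -1.21) and Dusp8 (12.6 against 5.66 FPKM, -1.03). Dusp8 was at 0.0711 and 0.0888 FPKM without drug. Ripk2, the kinase of NOD signalling, was at 79.7 against 44.7 FPKM (-0.82), with the intervals apart.

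Targets of actin and SRF signalling had a median of -0.46 over 28 genes (-0.22 with equal-sum scaling) against 0.01 without drug. Past 2-fold, 2 were lower, Actg1 and Tpm4, and with equal-sum scaling 0 were. Tpm4, a tropomyosin, was at 544 FPKM (442 to 647) in treated WT and 265 FPKM (215 to 315) in treated GEF-H1-/- cells (-1.04). Actg1, for gamma-actin, was at 7395 against 3378 FPKM (-1.13), but its interval in treated WT cells ran from 67.9 to 15684 FPKM and overlapped the other. The same held for Actb (-0.89). Vcl, for vinculin (65.8 against 36.7 FPKM, -0.82), and Srf itself (38.1 against 21.7 FPKM, -0.79) were lower with intervals apart but within 2-fold.

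The Actg1 promoter is shown because it holds a match to the CArG box, the element that SRF binds. It is the RefSeq sequence (GRCm38.p6) at chr11:120348446-120348745 (minus strand), and capitals mark first an E-box and then, nearer the start, the CArG box.
Actg1: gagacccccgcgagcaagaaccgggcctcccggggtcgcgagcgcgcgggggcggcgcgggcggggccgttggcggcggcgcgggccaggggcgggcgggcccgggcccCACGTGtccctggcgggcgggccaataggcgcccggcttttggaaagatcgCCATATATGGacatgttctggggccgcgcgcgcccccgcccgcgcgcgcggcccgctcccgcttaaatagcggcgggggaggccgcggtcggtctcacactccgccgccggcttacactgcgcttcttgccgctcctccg
The CArG box is present in 1.63% of all windows and in 1.27% of those of the genes compared. As this promoter was picked for its match, it says nothing of the other genes of the list. Sdcbp2, for syntenin-2, had one of the widest gaps among genes outside the lists, at 29.9 FPKM (23.9 to 35.8) in treated WT and 3.33 FPKM (2.43 to 4.23) in treated GEF-H1-/- cells (-2.84) and 1.48 and 1.03 FPKM without drug. Its window at chr2:151572373-151572672 (plus strand) holds an AP-1 match, TGANTCA on either strand, in capitals.
Sdcbp2: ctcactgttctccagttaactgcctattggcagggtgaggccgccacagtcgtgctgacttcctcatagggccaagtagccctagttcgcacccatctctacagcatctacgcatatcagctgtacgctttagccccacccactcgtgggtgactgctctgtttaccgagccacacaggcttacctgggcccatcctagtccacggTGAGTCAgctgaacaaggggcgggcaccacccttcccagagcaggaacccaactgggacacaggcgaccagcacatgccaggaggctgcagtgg
This match is present in 7.81% of all windows and 5.28% of those of the genes compared. Windows were matched for 69.7% of the 211 lower genes, so that a motif share over them is void.

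Matrix and tissue remodelling genes went both ways, with 7 lower and 3 higher of 32 and a median of -0.18 (0.07 with equal-sum scaling). Without drug the median was 0.63, with 11 higher and 1 lower past 2-fold, where 1.05% and 0.486% of all genes compared were. Thbs1, for thrombospondin-1, was at 482 FPKM (378 to 585) in treated WT and 124 FPKM (98.3 to 149) in treated GEF-H1-/- cells (-1.95), whereas in untreated cells GEF-H1-/- had the higher level (66.3 against 38.7 FPKM, 0.76). Inhba, a subunit of activin (199 against 69.6 FPKM, -1.50), the growth factor gene Hbegf (50.6 against 21.5 FPKM, -1.20) and Timp3 (6.74 against 2.83 FPKM, -1.01) were lower with untreated differences between 0.27 and 0.29. Mmp2 was lower with and without drug (-1.50 and -1.48). The higher genes Fn1, Gpnmb and F13a1 were higher without drug too (2.35, 1.65 and 0.84). The integrin gene Itgb3 was at 25.4 and 24.9 FPKM in untreated WT and GEF-H1-/- cells and at 79.9 FPKM (65.1 to 94.6) in treated WT and 26.3 FPKM (21.5 to 31.1) in treated GEF-H1-/- cells (-1.56). The endothelial protein C receptor gene Procr (30.9 against 6.43 FPKM, -2.10) and the anaphylatoxin receptor gene C5ar1 (83.9 against 35.5 FPKM, -1.22) were lower as well.

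Of 46 stress response genes, 5 were lower and 0 higher, with a median of -0.27 (-0.04 with equal-sum scaling). They belong to different arms: the p53 targets Btg2 (129 against 46.2 FPKM, -1.46) and Pmaip1 (NOXA, 171 against 70.1 FPKM, -1.27), ferritin heavy chain Fth1 of the NRF2 arm (3727 against 1558 FPKM, -1.26), and Trib3 (16.3 against 6.92 FPKM, -1.13) and Slc7a11 (53.4 against 24.1 FPKM, -1.12) of the ATF4 arm. The heat shock genes had a median of -0.01. Interferon response genes had a median of -0.18 with drug and -0.19 without (0.03 treated with equal-sum scaling), and 2 of 39, Gbp2 (-1.06) and Oasl1 (-1.03), were just past the threshold. Of 14 genes picked out in earlier work on these same samples, 7 were lower and 0 higher past 2-fold, with a median of -0.98 (-0.13 untreated), and Arhgef2, the knocked-out gene itself, is 1 of the 7. Since the genes were chosen on these samples they are no independent evidence of a direction.

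Ribosome biogenesis genes, which encode nucleolar factors and RNA polymerase I subunits that make ribosomal RNA, were higher in treated GEF-H1-/- cells as a list. Of 37 genes, 14 were past 2-fold and 0 lower, where 1.81% of all genes compared were called higher. All 37 differences were above 0, from 0.22 to 1.52, with intervals apart for 26. The median was 0.86 with drug and 0.38 without, and no member was past 2-fold in untreated cells. Dkc1, for the pseudouridine synthase dyskerin, was at 10.2 FPKM (6.5 to 13.96) in treated WT and 31.3 FPKM (23.9 to 38.7) in treated GEF-H1-/- cells (1.52), and untreated at 24.2 and 37.5 FPKM. The RNA polymerase I subunit genes Polr1b (4.12 against 12.02 FPKM, 1.35) and Polr1a (3.68 against 10.2 FPKM, 1.26) and the box C/D snoRNP genes Nop56 (38.2 against 84.1 FPKM, 1.12) and Nop58 (44.6 against 91.4 FPKM, 1.02) followed. Treated WT cells had the lowest level of the 4 groups in all 37 members, as in 35.7% of the genes compared.

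The E-box CACGTG, a site read by MYC and related factors, was present in 8 of 41 promoter windows (19.5%) of the ribosome biogenesis list. It was in 12.2% of those of all genes higher in treated GEF-H1-/- cells, in 10.3% of those of the genes compared and in 7.15% of all windows. For the higher genes the C/EBP match had the wider gap, at 13.7% against 8.61% of the genes compared (9.76% in the list). Their AP-1, NF-kappaB and CArG shares were 5.85%, 9.27% and 0.488%, against 5.28%, 10.5% and 1.27%. No motif share was tested. Windows were matched for 32 of the 37 list members, some with more than 1 window. Of the 14 called members, 3 had the E-box in a window: Mybbp1a, Nop2 and Utp20. Nop2, which methylates ribosomal RNA (16.3 against 35.1 FPKM, 1.07), is shown as the example with the E-box before the start, at chr6:125131633-125131932 (plus strand), with the E-box in capitals (RefSeq, GRCm38.p6).
Nop2: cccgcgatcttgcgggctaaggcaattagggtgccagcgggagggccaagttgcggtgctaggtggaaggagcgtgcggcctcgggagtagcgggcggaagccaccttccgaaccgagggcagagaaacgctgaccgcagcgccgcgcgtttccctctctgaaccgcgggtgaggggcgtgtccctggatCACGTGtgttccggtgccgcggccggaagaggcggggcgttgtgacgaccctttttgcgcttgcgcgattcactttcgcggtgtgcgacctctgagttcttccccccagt
No AP-1 or CArG match was found in the windows of this list, which says only that these letters were not there.

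Cholesterol and fatty acid synthesis genes had a median of 0.50 with drug and 0.34 without, and 8 of 40 were higher and 1 lower past 2-fold. The 19 enzymes of the cholesterol pathway had a median of 0.80 with drug and 0.67 without, and ran from -0.11 to 1.65 with drug. Of them 7 were past 2-fold and 12 had intervals apart with drug, and 1 was higher past 2-fold without. Dhcr7, which catalyses a last step of cholesterol synthesis, was at 6.35 FPKM (4.81 to 7.8) in treated WT and 16.5 FPKM (12.8 to 20.1) in treated GEF-H1-/- cells (1.25) and untreated at 10.2 and 17.3 FPKM (0.71). Hsd17b7 (2.93 against 8.19 FPKM, 1.23), Sqle (14.8 against 33.3 FPKM, 1.12), Acat2 (2.89 against 7.29 FPKM, 1.09), Cyp51 (10.5 against 23.5 FPKM, 1.09) and Lss (5.19 against 11.5 FPKM, 1.02) were higher too. Fasn, fatty acid synthase, was near-equal without drug (18.5 and 22.2 FPKM) and apart with it, at 7.88 FPKM (6.43 to 9.32) in treated WT and 23.05 FPKM (18.9 to 27.2) in treated GEF-H1-/- cells, a difference of 1.44. The 1 lower gene was Abcg1, a cholesterol exporter (54.3 against 25.8 FPKM, -1.05).

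Other genes with their lowest level in treated WT cells were Tfrc, Nrep, Srm and Tns1. Tfrc, the transferrin receptor that brings iron into cells, was at 89.2 and 83.5 FPKM untreated and at 28.3 FPKM (22.2 to 34.2) in treated WT and 63.7 FPKM (48.5 to 77.7) in treated GEF-H1-/- cells (1.14), and it was the 1 of 14 housekeeping genes past 2-fold. Nrep was at 35.9 and 54.3 FPKM untreated in WT and GEF-H1-/- cells, and with drug at 11.6 against 50.2 FPKM (2.03). Srm, spermidine synthase, was at 31.2 FPKM (23.4 to 38.3) in treated WT and 104 FPKM (80.7 to 128) in treated GEF-H1-/- cells (1.71), with 0.82 untreated. Srm and Tns1 (1.77) are outside the rule for named genes and were chosen after their values were seen.

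**Figure D4:**
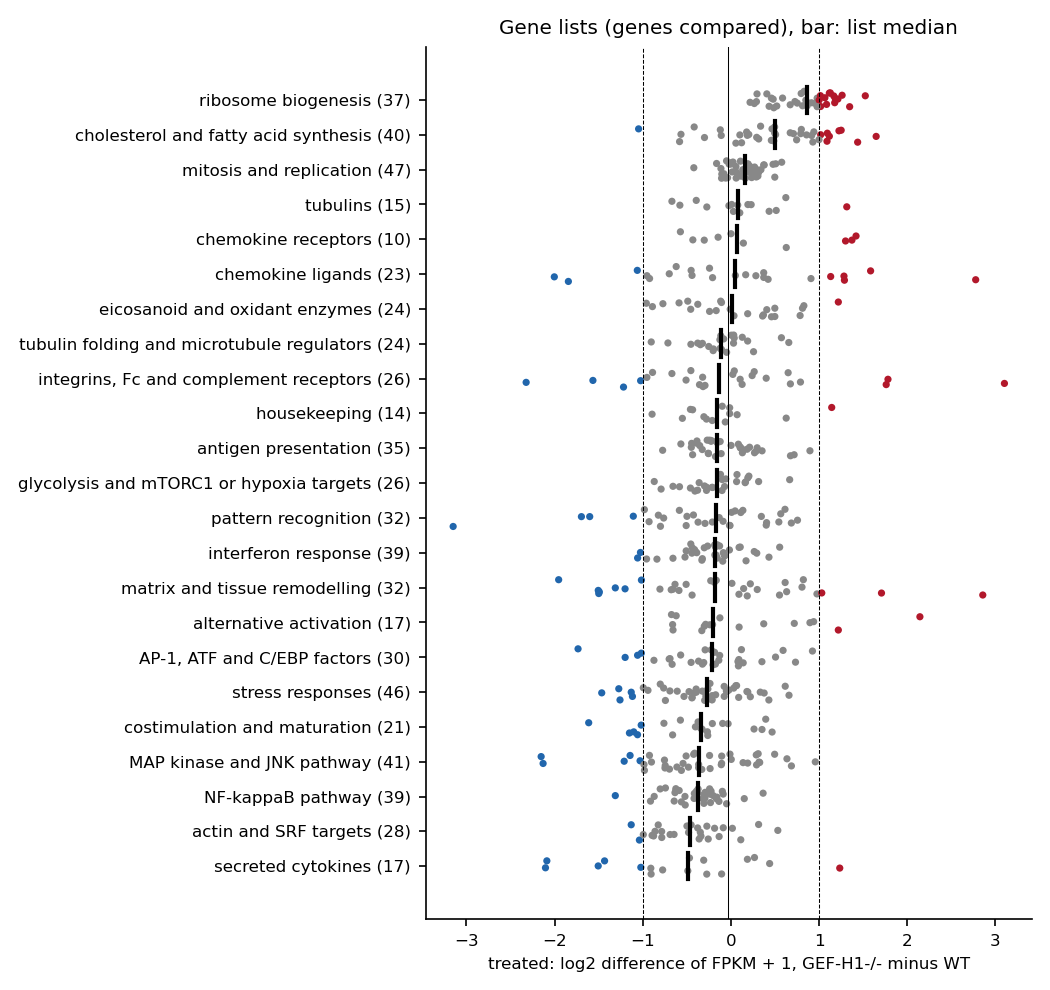
Log2 difference of FPKM + 1 between treated GEF-H1-/- and treated WT cells (x axis) for the compared members of the gene lists shown (y axis, number of members in parentheses), with the list median as a bar, the median of all genes as a thin line and dashed lines at 2-fold. Ribosome biogenesis (median 0.86) and cholesterol and fatty acid synthesis (0.50) have the highest medians of the lists plotted, and secreted cytokines (-0.49) and actin and SRF targets (-0.46) the lowest.

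A further set of genes differed between the genotypes with and without the drug. Rbp4, for the retinol carrier in plasma, had the widest gap in the higher direction: 1.05 and 49.4 FPKM in untreated WT and GEF-H1-/- cells and 2.49 FPKM (1.55 to 3.44) in treated WT and 68.5 FPKM (52.6 to 84.5) in treated GEF-H1-/- cells, differences of 4.62 and 4.32. The complement genes C1qa, C1qb and C1qc, which lie together at chr4:136880145-136898844 and encode the chains of C1q, were all higher, at 3.10, 1.78 and 1.76 with drug and 2.53, 1.34 and 1.43 without. Fn1, for fibronectin, was at 3.41 FPKM (2.49 to 4.41) in treated WT and 30.96 FPKM (23.8 to 39.8) in treated GEF-H1-/- cells (2.86, untreated 2.35). Retnla, an IL-4-induced gene of alternatively activated macrophages, was at 537 against 2378 FPKM (2.14, untreated 2.23). In both untreated and treated cells these genes were several-fold higher in GEF-H1-/-, with the intervals apart. Ccl8 was listed at 0 in untreated WT cells.

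The other genes among the 15 highest were Fcer1a (4.62 against 32.3 FPKM, 2.57), the homeobox gene Msx3 (0.521 against 7.66 FPKM, 2.51), the matrix Gla protein gene Mgp (0.161 against 5.05 FPKM, 2.38), the non-classical MHC gene H2-M2 (1.43 against 9.89 FPKM, 2.16), Wfdc17 (27.2 against 122 FPKM, 2.13), Tmem26 (0.936 against 6.85 FPKM, 2.02), Mucl1 (4.92 against 21.5 FPKM, 1.93), Ctsk (1.61 against 8.65 FPKM, 1.89) and Ptrf, for the caveola coat protein cavin-1 (1.93 against 9.19 FPKM, 1.80). All 9 were past 2-fold without drug too, with untreated differences from 1.39 to 2.30. Fcer1a is the alpha chain of the IgE receptor of basophils and mast cells, and Ctsk the collagen-degrading cathepsin K.

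On the lower side, Camp and Stfa3 differed as much without the drug as with it. Camp, for the antimicrobial peptide cathelicidin, was at 202 FPKM (133 to 214) in treated WT and 18.7 FPKM (11.98 to 22.3) in treated GEF-H1-/- cells (-3.37, untreated -3.57). Ngp (2135 against 665 FPKM, -1.68), Ltf, for lactoferrin (402 against 129 FPKM, -1.63), Lcn2, for lipocalin-2 (1409 against 553 FPKM, -1.35), and S100a8 (23110.3 against 11199 FPKM, -1.05) were lower too. Their untreated differences were -1.28, -1.46, -0.66 and -0.84, and the untreated intervals of Lcn2 overlapped. The stefins, inhibitors of cysteine cathepsins, lie in 1 cluster at chr16:36156811-36455392 (mm10), and all 9 genes compared there were lower, from -1.52 (BC117090) to -3.46 (Stfa3) with drug and from -0.52 to -3.46 in the same genes without. Stfa3 was at 200.1 FPKM (106 to 172) in treated WT and 17.3194 FPKM (8.39 to 17.3114) in treated GEF-H1-/- cells, and both values are above their own intervals. These genes are near-identical copies, so that reads can be split between them and their single values are uncertain. Stfa2 (739.8 against 128 FPKM, -2.52), BC100530 (450.5 against 73.4 FPKM, -2.60) and 2010005H15Rik (153 against 24.98 FPKM, -2.57) were the other cluster members among the 15 lowest genes. Stfa2 and BC100530 in both treated groups, and 2010005H15Rik in treated WT cells, were also above their own intervals. Complement factor B, Cfb, was at 9.43 against 1.09 FPKM, -2.32, Ifitm6 at 52.6 against 10.97 FPKM, -2.16 and Calcb, for a calcitonin gene-related peptide, at 63.7 against 6.55 FPKM, -3.10, with untreated differences of -2.08, -2.19 and -1.75.

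Several of these genes mark particular blood cell types, so the marker lists of the cells that a bone marrow culture can hold are given beside them. Among dendritic cell markers, Itgax (132 and 175 FPKM in treated WT and GEF-H1-/- cells), H2-Ab1 (623 and 517) and Cd74 (4935 and 3331) were abundant. The cDC1 genes Clec9a and Xcr1 stayed under 1 FPKM in all groups. Zbtb46, the paper's reporter gene for classical dendritic cells, was at 22.1 against 13.2 FPKM with drug (-0.70). Without drug it was at 14.8 against 9.09 FPKM (-0.65), and the intervals overlapped in both states. The list summed to 5973 against 4306 FPKM with drug and 4666 against 3986 without, WT before GEF-H1-/-, mostly through Cd74. None of the 10 dendritic cell markers compared was past 2-fold of FPKM + 1 (median -0.08, 0.14 with equal-sum scaling). Cd209a (0.808 against 2.47 FPKM, 0.94) and Flt3 (1.07 against 2.18 FPKM, 0.62), at low levels, had intervals apart and FPKM ratios of 3.05 and 2.05, and Cd209a was past 2-fold with equal-sum scaling. Neutrophil markers were abundant, with a summed level of 40044 FPKM in treated WT and 23161 in treated GEF-H1-/- cells, 33575 and 22760.3 without drug. S100a8 alone made up 11912 FPKM of the treated gap, and its FPKM lay above its own interval in both treated groups (11072 to 20260.5 in WT and 5535 to 9227 in GEF-H1-/- cells). The members split, with 6 of 14 above 0 and a median of -0.23 (0.02 with equal-sum scaling): 5 were lower (Camp, Ngp, Ltf, Lcn2 and S100a8) and 2 higher, Mpo (21.7 against 58.995 FPKM, 1.40), of early granules, and Csf3r (13.04 against 27.4 FPKM, 1.01), the receptor for G-CSF. S100a9 (-0.29) and the granule protease genes Elane (0.92), Ctsg (0.76) and Prtn3 (0.58) were within 2-fold, and of these only Ctsg had intervals apart. Elane and Prtn3 are listed at the same locus, and their intervals started at 0. Elane was at 20.2 FPKM (0 to 91.8) in treated WT and 39.2 FPKM (0 to 136) in treated GEF-H1-/- cells.

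Macrophage and monocyte markers had a median of 0.68, with the 3 C1q genes higher and Ly6c2 (454 against 212 FPKM, -1.10) lower of 12. They had a summed level of 1178 against 1511 FPKM with drug and 1285 against 1637 without, WT before GEF-H1-/-. Lyz2 alone was at 511 against 909 FPKM with drug and 557 against 984 without. These gaps are wider than those of the sums through Ly6c2, which was also lower without drug (448 against 231 FPKM). With drug, 11 of the 12 were above 0 and only Ly6c2 was below. Those above 0 included Mertk (0.778 against 2.53 FPKM, 0.99) and Mrc1 (8.59 against 16.9 FPKM, 0.90), both with intervals apart. Basophil and mast cell markers had a median of 0.64 and a summed level of 233 against 384 FPKM with drug and 208 against 400.0 without. Past 2-fold were 2 of 9, Fcer1a and Ms4a2 (3.84 against 12.1 FPKM, 1.43). Hdc was the 1 member below 0 with drug (29.2 against 14.5 FPKM, -0.96), and was above 0 without (0.67). Its intervals lay apart in both states. Megakaryocyte and platelet markers had a median of 0.85 and summed to 92.7 against 164 FPKM with drug and 56.2 against 152 without, with Pf4 (30.2 against 75.3 FPKM, 1.29) past 2-fold of 7. Osteoclast markers had a median of 0.88 and summed to 329 against 339.9 FPKM with drug and 170.4 against 285 without, with Ctsk and Acp5 (7.89 against 23.7 FPKM, 1.47) higher and Dcstamp (-1.0038) lower of 6. T and NK cell markers were below 0 in all 7 genes compared, with Gzma (100.4 against 29.02 FPKM, -1.76) past 2-fold. They summed to 145 against 60.5 FPKM with drug and 127 against 65.2 without. Gzma was most of both WT sums (84.4 FPKM without drug). With drug, Cd3d, Cd3e, Lck and Nkg7 had overlapping intervals, while those of Cd3g and Cd8a lay apart. B cell markers had 0 of 3 past 2-fold.

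The remaining lists had 1 or no gene at a level to compare, or a split of genes: the erythroid gene Hbb-b1 was lower (10.9 against 1.79 FPKM, -2.09), the stromal gene Col1a2 higher (0.0228 against 1.84 FPKM, 1.48), and of 4 plasmacytoid dendritic cell markers Cox6a2 was higher (0.806 against 4.72 FPKM, 1.66, with a list median of -0.05, 0.17 with equal-sum scaling), with Siglech and Ccr9 under 1 FPKM in all groups. In each marker list, up or down, the summed level differed between the genotypes in the same direction with and without drug. Lyz2 was the largest member of the macrophage sum in all 4 groups, followed by Ly6c2. S100a8 was the largest of the neutrophil sum, followed by S100a9 (12394 against 10130 FPKM with drug). What part these cell types had in the differences of single genes above was not tested.

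**Figure D5:**
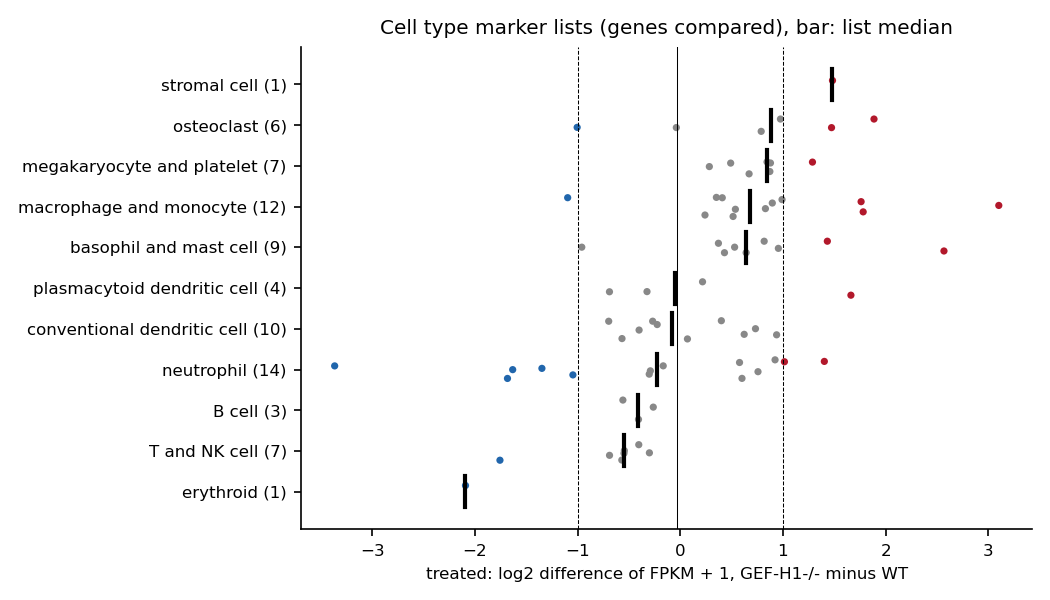
Log2 difference between treated GEF-H1-/- and treated WT cells (x axis) for the markers of each cell type (y axis, number compared in parentheses), with the median as a bar and dashed lines at 2-fold. Conventional dendritic cell markers lie within 2-fold of FPKM + 1, neutrophil markers on both sides, and macrophage markers mostly above 0 with a median of 0.68.

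Several lists close to the drug's target or to the cell's main functions held few called genes. Of 15 tubulin genes, 1 was past 2-fold, Tuba8 (60.1 against 151 FPKM, 1.31), and the median was 0.08. Tubb6 (387 against 243 FPKM, -0.67) was lower with intervals apart but within 2-fold. The 24 genes for tubulin folding and microtubule regulation had none called and a median of -0.11 (0.12 with equal-sum scaling). Mitosis and replication genes had none of 47 called, with a range from -0.42 to 0.58, and a median of 0.17. Antigen presentation genes had none of 35 called, with a median of -0.16 (0.09 with equal-sum scaling), and glycolysis and hypoxia genes none of 26, with a median of -0.16 (0.08). For comparison, the share of all genes called in either direction was 3.71%.

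Eicosanoid and oxidant enzymes had 1 of 24 called, Alox15 (18.7 against 44.95 FPKM, 1.22), an IL-4-induced lipoxygenase, and the alternative activation list 2 of 17, Alox15 and Retnla (list median -0.21, 0.04 with equal-sum scaling). The list of integrins, Fc and complement receptors had 3 higher, the C1q genes, and 4 lower of 26: Cfb, Itgb3, C5ar1 and Cd93 (8.23 against 3.54 FPKM, -1.02), with a median of -0.14 (0.11 with equal-sum scaling). Among 14 housekeeping genes the median was -0.15 (0.09 with equal-sum scaling). The 4 Y-linked genes compared differed by -0.22 to 0.37 (median -0.04, 0.19 with equal-sum scaling).

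The genes within 5 Mb of Arhgef2 on chromosome 3, which can be inherited together with the knockout allele, were counted as well. Whether they were in these mice is not known. Of 102 neighbours, 4 were higher (Fcrls 1.75, Slc27a3 1.29, Cd5l 1.21 and Npr1 1.14) and 2 lower (S100a8 -1.05 and Rab13 -1.02), against 1.81% and 1.9% of all genes. The median was -0.05 (0.17 with equal-sum scaling), where that of all genes was -0.03 (0.19). Over all chromosomes, 12 runs of higher and 17 runs of lower genes had at least 2 called genes within 200 kb of each other, and the stefin cluster was the longest with 9.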

How the data were processed

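RNA was sequenced from 8 libraries of BMDCs in 4 groups of 2, prepared with a stranded mRNA kit and read as paired ends. The deposited values are FPKM that the authors computed with Cuffdiff (1.05 in the submitters' processing notes, build mm10), 1 value per gene and group with the bounds of a 95% interval and a status. The aligner and annotation behind these FPKM are not given in the sources used here, nor whether their counting used strand. The methods describe a stranded STAR alignment for a separate count analysis, not used here. Library totals are not in this table, so depth is unknown, and intervals had a median width of 45.2% of the FPKM in treated WT cells.

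Columns were matched to groups by name, those of WT cells by elimination. Genes without status OK in both treated groups (107), under 1 FPKM in both, or of microRNA or snoRNA type (by symbol or RefSeq biotype, 773 in the table, Rnu73b included) were left out. The log2 difference of FPKM + 1 was called past 1 or -1, in a script tested on simulated data. It understates differences of low genes. The fit for separate libraries (limma) was not run, as values were pooled. Of the called genes, 14 had an FPKM outside its own interval in a treated group. Locus starts in the file count from 0 and are given from 1.

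Gene lists, markers and members were chosen with earlier results of these data known. Named genes were Arhgef2, genes the paper names, the 15 highest and 15 lowest differences among genes with at least 5 FPKM in the higher group and intervals apart, list members past 2-fold or nearest the extremes, and genes past 2-fold in opposite directions without drug. 11066 of the 11115 genes matched RefSeq (GRCm38.p6), and 8947 had a promoter window. Pseudocounts of 0.1 and 5, other filters, thresholds of 1.5-fold and 3-fold, and 2 scalings were tried. Results for some genes and lists are not reported here.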

Additional observations from a re-analysis of the deposited data

Results flagged for a closer look

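Of the genes past 2-fold in treated cells, 2 were past 2-fold in the opposite direction in untreated cells, and both encode products of inflamed myeloid cells. The chemokine gene Cxcl3 was lower in treated GEF-H1-/- cells (-2.0025) and higher in untreated ones (1.11), so that the treated difference lay -3.11 from the untreated one on the log2 scale. The lectin gene Clec4d had -1.70 and 1.10, -2.79 apart. The intervals of the genotypes lay apart in both states for both genes. With 1 pooled value per group the difference between the states was not tested.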

How the results depend on the processing

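Counts followed the pseudocount and the threshold. As reported they were 201 higher, 211 lower, 396 with intervals apart and 111 past 2-fold in the same direction untreated. A pseudocount of 0.1 FPKM gave 392 higher, 338 lower, 666 with intervals apart and 221 also past it untreated, and one of 5 FPKM 58 higher, 108 lower, 160 with intervals apart and 45 also past it untreated. A threshold of 1.5-fold gave 801 higher, 826 lower, 1351 with intervals apart and 379 also past it untreated, and one of 3-fold 30 higher, 47 lower, 74 with intervals apart and 23 also past it untreated. Equal-sum scaling gave 380 higher and 111 lower, and median-ratio scaling 226 and 188. The other filters left the 4 counts within 1.5 times. Of the 82 single-gene and list values recomputed, 7 moved by more than their interval with the pseudocount of 0.1 and 18 with that of 5, none with the scalings, and no called gene among them reversed. No symbol was repeated, so leaving out repeated symbols changed nothing. No paired analysis was possible because the table holds pooled values without replicates, and leaving out each replicate in turn could not be run for the same reason. With 1 value per group, the spread between libraries is not known, and the intervals of Cuffdiff are the only error.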

Other observations

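Some called genes outside the lists are given here as single genes. They were chosen after their values were seen, no list of their functions was counted, and related genes that were not called are not shown. Dgat1 (81.6 against 22.1 FPKM, -1.83) and Dgat2 (51.6 against 22.03 FPKM, -1.19), which make triglyceride, and Hilpda (32.4 against 11.8 FPKM, -1.39) and G0s2 (42.1 against 14.3 FPKM, -1.50), which restrain its breakdown, were lower in treated GEF-H1-/- cells. Of these, G0s2 was near 2-fold without drug (-0.99), and Hilpda was 0.46. Ramp3, a partner of the calcitonin-family receptors, was lower (347 against 106 FPKM, -1.70), as was Calcb. The arginase gene Arg2 (39.99 against 9.91 FPKM, -1.91) and the retinal dehydrogenase gene Aldh1a3 (5.18 against 0.564 FPKM, -1.98) were lower past 2-fold with drug (untreated 0.36 and 0.17).

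Cad (6.76 against 17.3 FPKM, 1.24) and Ctps (6.37 against 17.8 FPKM, 1.35) of pyrimidine synthesis and Gart (15.6 against 34.9 FPKM, 1.11) of purine synthesis were higher in treated GEF-H1-/- cells, with untreated differences from 0.08 to 0.54. The RNA-modifying enzyme genes Mettl1 (7.36 against 21.04 FPKM, 1.40), Nsun2 (22.5 against 48.6 FPKM, 1.08), Pus7 (4.29 against 13.5 FPKM, 1.45) and Trmt61a (5.32 against 12.4 FPKM, 1.09) also had higher values. The eosinophil granule genes Epx (80.2 against 33.2 FPKM, -1.25) and Prg2 (835 against 382 FPKM, -1.13) and the ribonucleases Ear1 (142 against 39.98 FPKM, -1.80) and Ear6 (231 against 89.1 FPKM, -1.36) were lower with and without drug, whereas Ear11 was higher (272 against 869 FPKM, 1.67). The Ear genes are close copies, and their single values are uncertain. Mmp13, a collagenase, was 3.62 in untreated cells and 0.82 in treated ones, at 1.63 and 31.2 FPKM in untreated WT and GEF-H1-/- cells and 29.5 and 52.8 FPKM with drug.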
